A study of Homo sapiens with 2 samples.

Results

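miR-146a, miR-146b, miR-155 and miR-9 are microRNAs (miRNAs) linked to inflammation and often listed with basal-like breast cancer. They were followed in small-RNA sequencing of stem-enriched cells from 2 human breast cancer cell lines. The members were all table rows on the precursors hsa-mir-146a, hsa-mir-146b, hsa-mir-155, hsa-mir-9-1, hsa-mir-9-2 and hsa-mir-9-3, both arms, which gave 6 of 1087 annotated precursors, 12 rows and 8 mature names. MDA-MB-468 is triple-negative, without oestrogen receptor (ER), progesterone receptor or HER2, and was grown in DMEM. BT474 is ER-positive and was grown in RPMI-1640, and both media held serum and antibiotics. Both lines were sorted by flow cytometry on CD24 and CD44, surface proteins used to enrich breast cancer stem cells, and the labels do not give the gate. Each line gave 1 library, so the differences have no replicate check, intervals are at the 95% level and hold counting error alone, and line, medium and sort cannot be told apart. In these bulk libraries fewer cells that express a miRNA and less of it per cell cannot be told apart either.

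miR-146a and miR-155 are induced by NF-kB downstream of Toll-like and cytokine receptors. miR-146a and miR-146b repress the signalling adaptors IRAK1 and TRAF6 and so act as brakes on the same pathway, whereas miR-155 represses SOCS1 and INPP5D, which restrain cytokine signalling. miR-9 is best known from the nervous system, is made from separate loci, and has been described to repress E-cadherin (CDH1) and NFKB1. An miRNA hairpin gives a 5p and a 3p product, and targets are recognised mainly through the seed, bases 2 to 8.

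The mature sequences are shown because they decide what the counts can separate; capitals mark the seed (RefSeq, GRCh38.p14). All 8 names were matched.
miR-146a-5p: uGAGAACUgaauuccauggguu
miR-146b-5p: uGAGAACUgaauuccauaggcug
miR-146b-3p: gCCCUGUGgacucaguucuggu
miR-155-5p: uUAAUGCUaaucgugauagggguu
miR-9-5p: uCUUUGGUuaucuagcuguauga
miR-9-3p: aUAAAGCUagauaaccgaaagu
miR-146a-5p and miR-146b-5p share the seed GAGAACU and their first 17 bases. They differ by G18A and U21C, counted from 1 at the 5′ end with the miR-146a-5p base first, and miR-146b-5p is 1 base longer (23 against 22). A tag that ends within those 17 bases cannot tell them apart. The 3p arms of the same hairpins have different seeds, CUCUGAA for miR-146a-3p and CCCUGUG for miR-146b-3p. No other member shared a seed.

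The mir-9 hairpins are printed with their mature arms in capitals, since they show why the loci could not be separated.
mir-9-1: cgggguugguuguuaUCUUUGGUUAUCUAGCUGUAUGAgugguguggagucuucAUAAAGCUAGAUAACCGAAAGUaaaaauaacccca
mir-9-2: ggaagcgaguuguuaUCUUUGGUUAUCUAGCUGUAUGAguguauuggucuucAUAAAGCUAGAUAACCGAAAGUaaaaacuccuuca
mir-9-3: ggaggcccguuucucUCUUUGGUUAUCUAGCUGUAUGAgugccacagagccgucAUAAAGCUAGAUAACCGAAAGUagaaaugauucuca
Both mature arms are identical in the 3 hairpins, and the flanks and loops differ. The deposited table lists the same counts under each precursor, so miR-9 was counted once and its locus is not known. In the annotation (GENCODE 29, GRCh38) MIR9-1 lies in an intron of C1orf61 (chr1:156420341-156420429, minus strand), MIR9-2 in an exon of LINC00461 (chr5:88666853-88666939, minus strand) and MIR9-3 in an intron of MIR9-3HG (chr15:89368017-89368106, plus strand).

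The other hairpins each have 1 locus, all on the plus strand. MIR146A overlaps an exon of the long non-coding transcript MIR3142HG (chr5:160485352-160485450), and MIR155 overlaps an exon of MIR155HG (chr21:25573980-25574044). MIR146B is intergenic (chr10:102436512-102436584), with CUEDC2 the nearest gene at 3851 bp.

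The RefSeq promoter windows of the host transcripts, from 250 bases before to 50 after each start, were searched on both strands for the kappaB letters GGACTTTCC and the AP-1 letters TGAGTCA. These letters were chosen with the windows in view, and the kappaB letters are the last of 3 spellings tried. The other spellings, with a further leading G and with a leading G and 2 free inner bases, occurred in 67 windows (0.191%) and 564 windows (1.61%), those of MIR3142HG included and MIR155HG not. The hits are shown for the hosts of miR-146a and miR-155, with the motif in capitals and 20 bases on each side.
MIR3142HG, chr5:160468112-160468160, plus strand: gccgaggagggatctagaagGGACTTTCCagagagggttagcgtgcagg
MIR155HG, chr21:25562065-25562111, plus strand: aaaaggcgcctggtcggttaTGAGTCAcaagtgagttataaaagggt
The kappaB letters began 119 bases before the start of MIR3142HG and occurred in 130 of 35116 windows (0.370%). The AP-1 letters began 60 bases before the start of MIR155HG and occurred in 1738 windows (4.95%). The kappaB letters were not in the MIR155HG window and the AP-1 letters not in that of MIR3142HG. Neither was in the 1, 3 and 4 windows of MIR9-1HG (C1orf61), MIR9-2HG (LINC00461) and MIR9-3HG. A match describes these letters and not a bound site. An absence covers these letters in these windows alone, and sites spelled otherwise or lying outside the windows were not searched here beyond the spellings given.

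Annotated miRNAs summed to 11448022 counts in MDA-MB-468 against 5133057 in BT474. Levels are given as CPM, counts scaled to these totals, and 10 counts made 0.874 CPM in MDA-MB-468 against 1.95 CPM in BT474. Together the members held 10669 counts in MDA-MB-468 against 5185 in BT474, which is 0.0932% of all counts for MDA-MB-468 and 0.101% for BT474. All 7 epithelial miRNA markers were listed in both libraries, miR-200b-3p being the most abundant of them in MDA-MB-468 and miR-200c-3p in BT474. The 7 markers summed to 87260 CPM in MDA-MB-468 against 61521 CPM in BT474. Their directions were mixed: 2 were at least 2-fold higher in MDA-MB-468, 2 at least 2-fold lower and 3 neither. The median log2 ratio of the 7 was 0.54. By the call rule given below, 32.9% of the 690 eligible miRNAs were higher and 28.3% lower. The median log2 ratio of the eligible miRNAs was 0.30. With 7 markers the mixed directions were not set apart from these shares.

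Of the 8 mature names, miR-146a-3p and miR-155-3p were not listed in either library, where the smallest listed count was 2. The other 6 passed the minimum of 10 counts in at least 1 library. An arm was called where its level differed by at least 2-fold and the interval of the ratio excluded equality. The passenger arms miR-146b-3p and miR-9-3p were called higher in MDA-MB-468 (2 of 6), miR-155-5p was called lower (1 of 6), and miR-146a-5p, miR-146b-5p and miR-9-5p were not called. Over all 690 eligible miRNAs 61.2% were called, 32.9% higher and 28.3% lower (227 and 195, against 179 and 237 when each library's own 10 most abundant miRNAs were left out of the total), so these shares are near the background. The median log2 ratio of MDA-MB-468 over BT474 was 0.49 over the 6 arms and 0.30 over all eligible miRNAs.

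**Figure D1:**
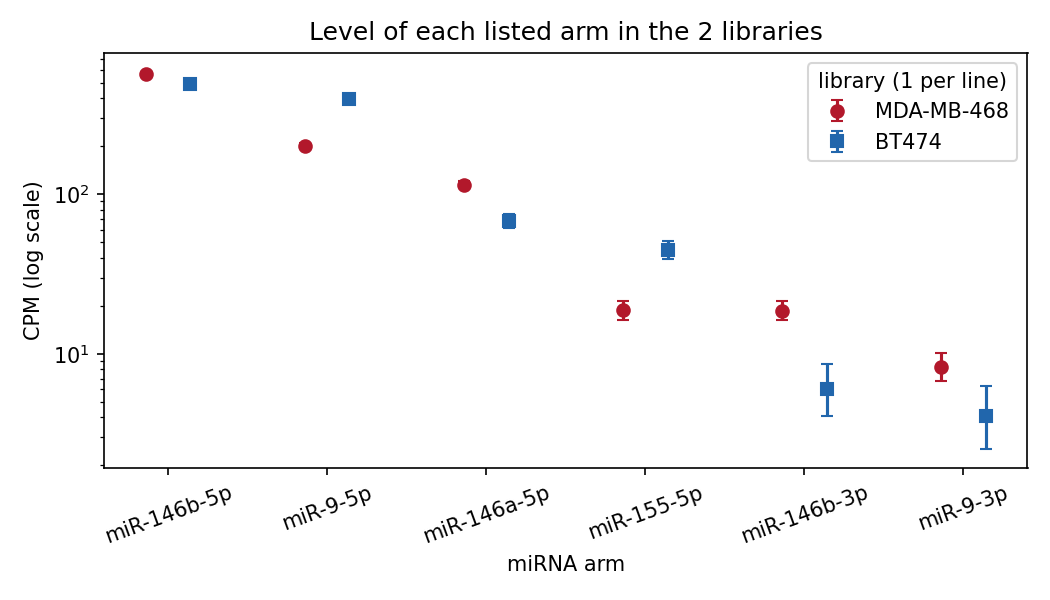
CPM (log axis) of each listed arm in the MDA-MB-468 library (circles) and the BT474 library (squares), with exact Poisson 95% intervals for counting error. miR-146b-5p is the highest arm in both libraries, and miR-155-5p and miR-9-5p lie lower in MDA-MB-468.

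Among the brakes of the pathway, miR-146b-5p was the most abundant member in both libraries. It had 6523 counts in MDA-MB-468 against 2515 in BT474, which is 569.8 CPM (556 to 584) for MDA-MB-468 and 490.0 CPM (471 to 509) for BT474. The levels lay close together: the log2 ratio of MDA-MB-468 over BT474 was 0.22 (0.15 to 0.28), a 1.16-fold difference, and it reversed to -0.14 when each library's own 10 most abundant miRNAs were left out of the total. By level it ranked 82nd among the miRNAs listed in MDA-MB-468 and 79th among those in BT474.

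miR-146a-5p was scarcer, with 1315 counts in MDA-MB-468 against 349 in BT474. This was 115 CPM (109 to 121) in MDA-MB-468 against 68.0 CPM (61.0 to 75.5) in BT474. It ranked 154th in MDA-MB-468 and 182nd in BT474. The level was higher in MDA-MB-468 by 1.69-fold (log2 ratio 0.76, 0.59 to 0.93), beyond counting error and short of 2-fold. The interval did not reach 2-fold.

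The guides of hsa-mir-146a and hsa-mir-146b can be weighed against each other within a library, which does not depend on scaling. miR-146b-5p had 4.96 times the counts of miR-146a-5p in MDA-MB-468 against 7.21 times in BT474. The ratio of these ratios was 0.688 (0.605 to 0.782). miR-146a-5p therefore made up 16.8% of the counts with the shared seed in MDA-MB-468 (Clopper-Pearson interval 16.0 to 17.6) against 12.2% in BT474 (11.01 to 13.44). Summed, the guides with seed GAGAACU stood at 685 CPM in MDA-MB-468 against 558 CPM in BT474 (log2 ratio 0.30, 0.23 to 0.36), reversed to -0.066 when each library's own 10 most abundant miRNAs were left out. The log2 ratio of this sum as reported, 0.30, is near the median log2 ratio of all eligible miRNAs.

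The transcript that carries miR-146a also carries miR-3142, which lies in an intron of MIR3142HG. miR-3142 was blank in MDA-MB-468, against 8 counts in BT474. With so few counts it was not eligible, and no ratio is given.

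miR-155-5p, processed from MIR155HG, was the guide with the fewest counts. It had 214 counts in MDA-MB-468 against 230 in BT474, although MDA-MB-468 was sequenced 2.23 times as deeply. Its level was 18.7 CPM (16.3 to 21.4) in MDA-MB-468 against 44.8 CPM (39.2 to 51.0) in BT474, 2.40-fold lower in MDA-MB-468. The log2 ratio was -1.26 (-1.54 to -0.99), an interval that excludes equality and extends just inside 2-fold. It kept its call under all 13 alternatives, with log2 ratios between -1.62 and -1.10. It ranked 260th in MDA-MB-468 and 202nd in BT474.

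miR-146a-5p and miR-155-5p, both described as induced by NF-kB, thus lay on opposite sides of equality. miR-146a-5p had 6.14 times the counts of miR-155-5p in MDA-MB-468 against 1.52 times in BT474. That ratio was 4.05-fold higher in MDA-MB-468 (3.23 to 5.08), whatever the scaling.

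miR-9-5p was the second most abundant member in both libraries. It had 2309 counts in MDA-MB-468 against 2039 in BT474, which is 202 CPM (194 to 210) for MDA-MB-468 and 397 CPM (380 to 415) for BT474. The level was 1.97-fold lower in MDA-MB-468 (log2 ratio -0.98, -1.06 to -0.89), just short of 2-fold. It passed 2-fold under 7 of 13 alternatives, with log2 ratios down to -1.34. Relative to miR-155-5p it did not differ beyond counting error: it had 10.8 times the counts of miR-155-5p in MDA-MB-468 against 8.87 times in BT474, and the ratio of these was 1.22 (0.996 to 1.49). Relative to miR-146b-5p it did: miR-146b-5p had 2.83 times the counts of miR-9-5p in MDA-MB-468 against 1.23 times in BT474, 2.29-fold higher in MDA-MB-468 (2.12 to 2.47).

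**Figure D2:**
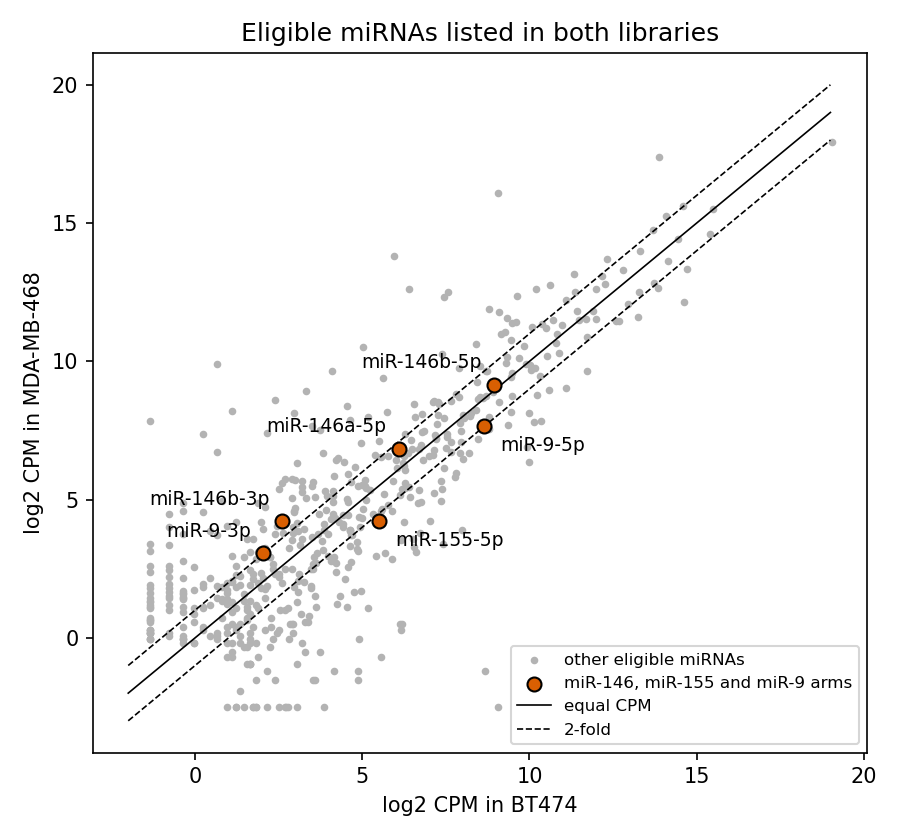
log2 CPM in MDA-MB-468 (vertical) against BT474 (horizontal) for eligible miRNAs listed in both libraries, with the 6 member arms in orange, the line of equal CPM solid and 2-fold dashed. miR-146b-5p lies close to equality, miR-9-5p and miR-155-5p lie at and beyond the lower 2-fold line, and miR-146b-3p lies beyond the upper one.

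The order of levels was the same for the guides in both libraries, miR-146b-5p, miR-9-5p, miR-146a-5p and miR-155-5p, and no neighbouring intervals of these overlapped. miR-155-5p and miR-146b-3p could not be ordered in MDA-MB-468, where they stood at 18.7 and 18.6 CPM. In BT474 miR-146b-3p, at 6.04 CPM (4.10 to 8.57), and miR-9-3p, at 4.09 CPM (2.53 to 6.25), overlapped. These are CPM of reads, and reads of different miRNAs need not stand for equal numbers of molecules.

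The passenger arms had other ratios than their guides. As reported, miR-146b-3p lay on the same side of equality as miR-146b-5p but further from it, and miR-9-3p on the opposite side from miR-9-5p. miR-146b-3p had 213 counts in MDA-MB-468 against 31 in BT474, which is 18.6 CPM for MDA-MB-468 and 6.04 CPM for BT474, a 3.08-fold difference (log2 ratio 1.62, 1.08 to 2.22) that was called under all 13 alternatives. miR-9-3p, which targets the co-repressor CoREST in neural cells, had 95 counts in MDA-MB-468 against 21 in BT474, which is 8.30 CPM for MDA-MB-468 and 4.09 CPM for BT474. The ratio of 1.02 on the log2 scale (0.33 to 1.78) had the opposite sign to that of miR-9-5p, and the call was lost under 8 of 13 alternatives.

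**Figure D3:**
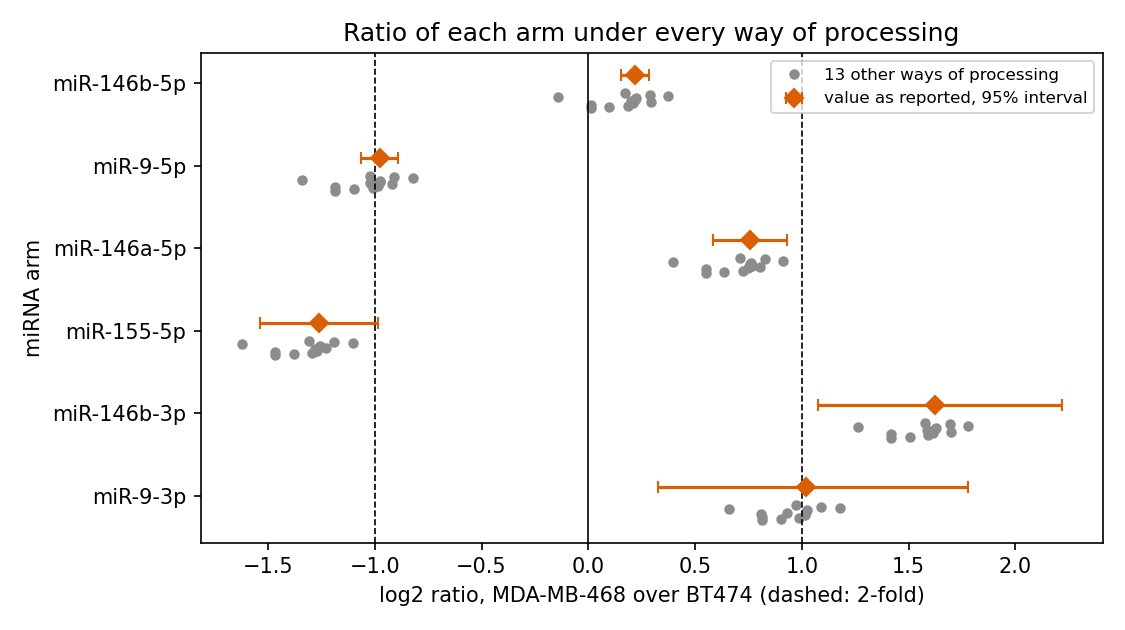
log2 ratio of MDA-MB-468 over BT474 for each member arm, with the value as reported and its 95% counting interval (diamonds) and the values under 13 other ways of processing (grey points); dashed lines mark 2-fold. miR-155-5p and miR-146b-3p stay beyond 2-fold throughout, both miR-9 arms fall on either side of the line, and miR-146b-5p falls below 0 in 1 of the 13.

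The balance of the arms needs no scaling. The 3p share of mir-146b was 3.16% in MDA-MB-468 (Clopper-Pearson interval 2.76 to 3.61) against 1.22% in BT474 (0.829 to 1.72). For mir-9 it was 3.95% (3.21 to 4.81) in MDA-MB-468 against 1.02% (0.632 to 1.55) in BT474. Both hairpins were thus strongly biased to the 5p arm in each library, and in each the 3p share was the larger in MDA-MB-468. The ratio of 3p to 5p counts was 2.65-fold higher in MDA-MB-468 for mir-146b (1.81 to 4.01) and 3.99-fold higher for mir-9 (2.46 to 6.77).

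Other hairpins were counted in the same way. None of the members moved by 20 percentage points with separate intervals, a shift found in 3.23% of 124 hairpins with at least 100 counts in each library. These hairpins were limited to those whose mature names are not shared with another precursor, so mir-9 is not among them. Of the 94 with both arms listed in both libraries, 17 (18.1%) had the rarer arm at least 2-fold higher relative to the commoner one in MDA-MB-468 with an interval excluding equality, and 17 had it at least 2-fold lower. The median change was 0.927-fold. A change at least as large as that of mir-146b was seen in 11 of the 94, mir-146b included. One at least as large as that of mir-9 was seen in 4, all of them other hairpins. Changes of the rarer arm thus ran in both directions across hairpins, and those of mir-146b and mir-9 were in the upper part.

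**Figure D4:**
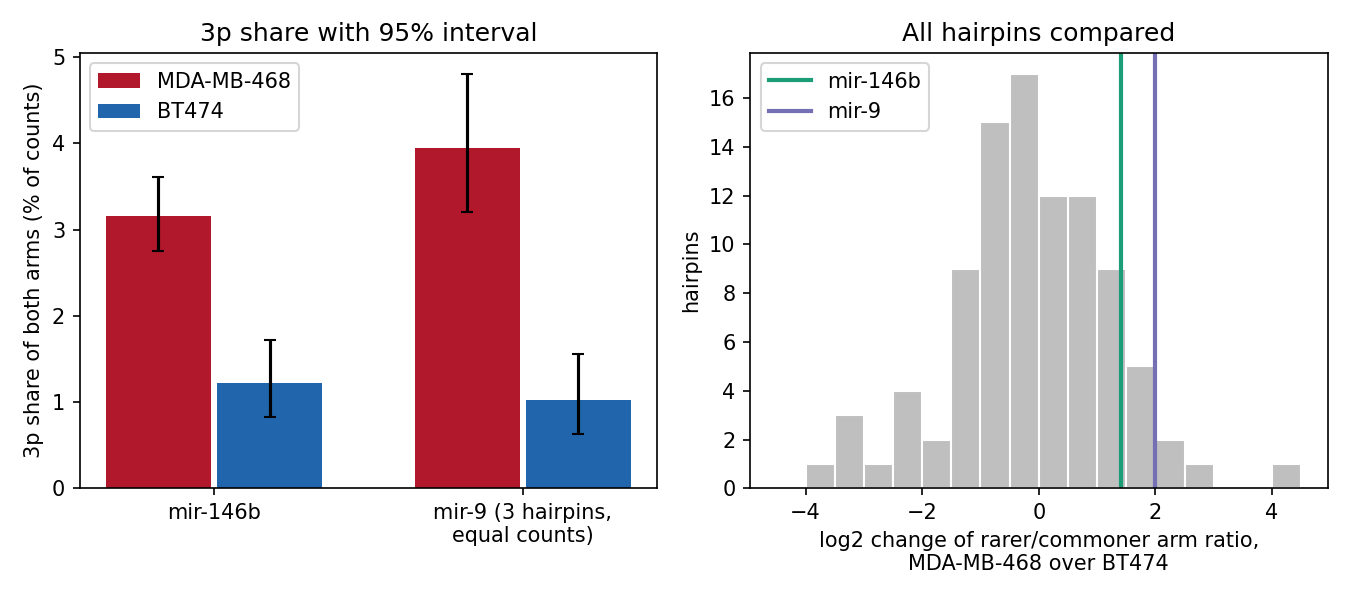
Left, share of 3p counts (%) of mir-146b and mir-9 in MDA-MB-468 and BT474 with exact 95% intervals. Right, number of hairpins by log2 change of the rarer over the commoner arm, MDA-MB-468 over BT474, for 94 hairpins, with lines at mir-146b (2.65-fold) and mir-9 (3.99-fold), both in the upper part of the distribution. mir-9 is not among the 94.

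The miRNAs with the nearest pattern to each guide were taken from 548 eligible miRNAs listed in both libraries, by the distance in log2 CPM over these 2 libraries. Nearest to miR-9-5p were miR-365b-3p and miR-365a-3p, which share nearly all their counts, and miR-1180-3p (distances 0.12, 0.12 and 0.18). For miR-155-5p they were miR-15a-5p, miR-424-3p and miR-760 (0.30, 0.37 and 0.45). For miR-146a-5p they were miR-194-5p, miR-320b and miR-5100 (0.31, 0.32 and 0.39), and for miR-146b-5p miR-16-5p, miR-181b-5p and miR-425-5p (0.25, 0.47 and 0.53). With 2 libraries such a distance describes level and ratio alone.

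Other miRNAs of the pathway were described from lists chosen with earlier results of these data known, so their direction is not independent evidence. Of 12 miRNAs listed here as NF-kB-induced, a grouping not checked in these data, 7 were called higher in MDA-MB-468, 2 lower and 3 neither. The median log2 ratio was 1.11. Among all eligible miRNAs the shares were 32.9% higher and 28.3% lower, and the median was 0.30. The summed level of the list went the other way, at 297624 CPM in MDA-MB-468 against 559356 CPM in BT474. Most of it was miR-21-5p, at 251480 CPM in MDA-MB-468 against 542430 CPM in BT474. The number of the list called higher was 5 without the 10 most abundant miRNAs (the same or each library's own) and with upper-quartile scaling. It was 6 with DESeq2 factors. At the top was miR-187-3p, with 18.6 CPM in MDA-MB-468 and not listed in BT474, 31.8-fold higher with 3 counts in place of the blank and at least 25.7-fold higher by the lower limit of the interval. At the bottom was miR-147b, with 1.48 CPM in MDA-MB-468 against 10.3 CPM in BT474 (log2 ratio -2.80, -3.68 to -1.99). The list thus held members with ratios on either side of those of the member guides. Among its abundant members, miR-30b-5p had a log2 ratio of 1.89, miR-23b-3p of 1.16, miR-27b-3p of 1.06, miR-24-3p of 0.71 and miR-21-5p of -1.11, and miR-221-3p and miR-222-3p stood at 4.88 and 4.94.

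Of 8 miRNAs described to act on NF-kB signalling proteins, 7 were eligible, with 1 called higher, 1 lower and 5 neither, against 32.9% higher and 28.3% lower over all eligible miRNAs. The number called lower was 2 without the 10 most abundant miRNAs (the same or each library's own) and with upper-quartile scaling, and 0 with DESeq2 factors over all listed miRNAs. Their median log2 ratio of 0.02 turned negative under 7 alternatives. miR-29c-3p, described to target the NF-kB inhibitor TNFAIP3, was highest at 1.60 (1.02 to 2.23). miR-125a-5p, described to act on the same gene, was lowest at -1.12 (-1.14 to -1.10), with 2837 CPM in MDA-MB-468 against 6156 CPM in BT474.

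Of 10 other miRNAs listed as basal-like, miR-221-3p and miR-222-3p among them again, each was called higher in MDA-MB-468 (10 of 10, against 32.9% of all eligible miRNAs), and the median log2 ratio was 4.33. Their lowest member, miR-20a-5p, had 6260 CPM in MDA-MB-468 against 1179 CPM in BT474 (log2 ratio 2.41), and their highest, miR-934, had a log2 ratio of 9.25. The abundant miR-17-5p stood at 2.69 and miR-205-5p at 7.87. Each of these lay above all 6 member arms, whose log2 ratios ran from -1.26 to 1.62. This list too was chosen with earlier results of these data known, so its direction and its distance from the members are not independent evidence. It also holds miRNAs of the same cluster, miR-17-5p, miR-18a-5p, miR-19a-3p and miR-20a-5p in MIR17HG, so the 10 are not separate observations.

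**Figure D5:**
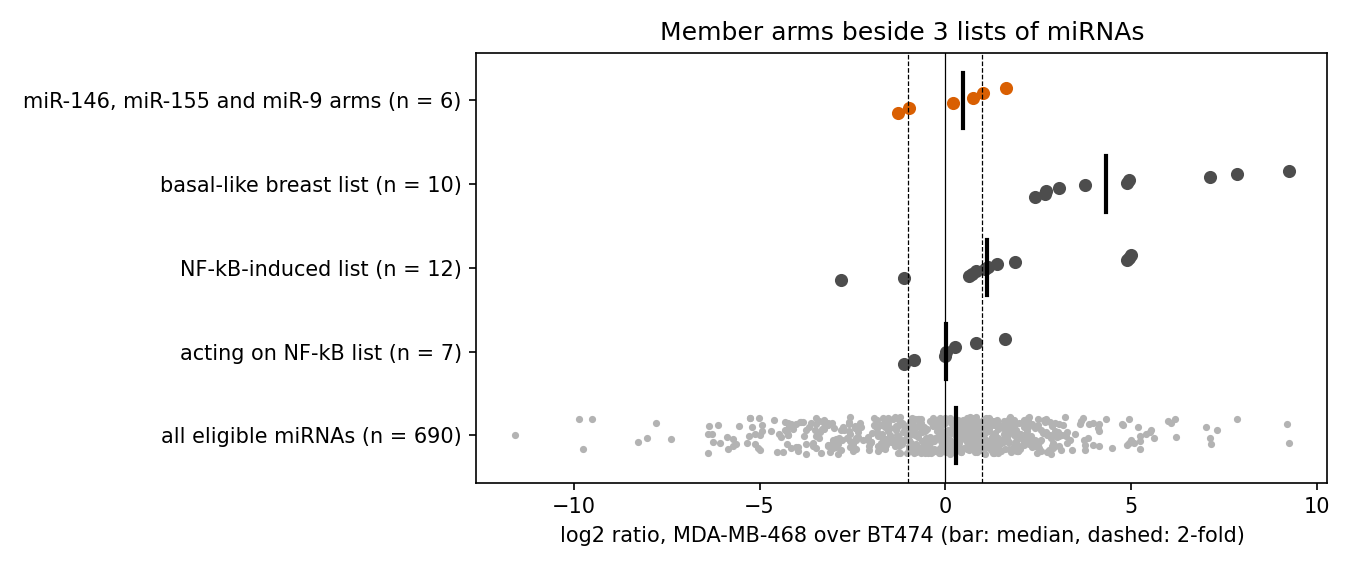
log2 ratio of MDA-MB-468 over BT474 (points) for the 6 member arms, 3 lists of eligible miRNAs and all 690 eligible miRNAs, with the median as a bar and 2-fold dashed. The member arms lie between -1.26 and 1.62, below every miRNA of the basal-like list. The lists were chosen with earlier results of these data known.

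Blood cells are known for high miR-155 and miR-146a and neural cells for high miR-9, so their other markers were counted. Of 7 blood cell markers, 6 were listed in MDA-MB-468 against 7 in BT474, with sums of 46.3 CPM for MDA-MB-468 and 64.3 CPM for BT474. Of the 5 eligible ones, 3 were lower in MDA-MB-468 by the call rule and none higher. Over all eligible miRNAs 28.3% were called lower and 32.9% higher. With 5 markers the count was not set apart from these shares. The most abundant was miR-150-5p, at 19.48 CPM in MDA-MB-468 against 16.56 CPM in BT474, and the myeloid marker miR-223-3p had 2 counts in each library. The lower blood marker sum in MDA-MB-468 stood beside the lower miR-155-5p, while miR-146a-5p was higher there (log2 ratio 0.76). Both libraries came from sorted cells of cultured breast cancer lines, so these markers give levels of miRNAs and not a count of blood cells. The part of blood cells in either value was not tested. Of 7 neuronal markers, 4 were in the table and 3 were listed in any library. They summed to 24.3 CPM in MDA-MB-468 against 1.17 CPM in BT474, nearly all of it miR-129-5p (24.1 CPM for MDA-MB-468 and 0.779 CPM for BT474), while miR-338-3p was blank in both. miR-9-5p had the opposite direction. Of 5 stromal and endothelial markers, 4 were listed in MDA-MB-468 against 5 in BT474, with sums of 581 CPM for MDA-MB-468 and 828 CPM for BT474. Of the 4 eligible ones, 2 were higher by the call rule, 1 lower and 1 neither, against 32.9% higher and 28.3% lower over all eligible miRNAs. The median log2 ratio of the 4 was 0.72. The most abundant in MDA-MB-468 was miR-143-3p, at 354 CPM against 158 CPM in BT474 (log2 ratio 1.17), and miR-145-5p, which is processed from the same transcript, stood at 1.16. The most abundant in BT474 was miR-126-3p, the endothelial marker and the one called lower, at 209 CPM in MDA-MB-468 against 659.8 CPM in BT474. The summed level and the median of the ratios thus pointed in opposite directions, and the part of these markers in the member values was not tested.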

How the data were processed

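Small-RNA libraries were made from size-selected adaptor-ligated RNA and read on an Illumina HiSeq, per the labels' protocols. The submitters' processing notes name Novoalign 2.07.11; the build, the miRNA release and the counter were not given in the sources. The authors deposited raw tag counts of all isoforms per mature miRNA and precursor, and scores that they normalized and rounded to whole numbers (per the file headers both hold tag counts; the scaling is not described). The header MAD-MB-468 was taken for the MDA-MB-468 title. Counts below 2 are not listed.

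The 384 predicted candidates of 2121 rows were left out. Names on several precursors kept their largest count and miR-199a-3p and miR-199b-3p were merged, which left 1623 miRNAs. CPM used the totals over these. Each ratio of MDA-MB-468 to BT474 carries a 95% interval from the exact binomial conditional on the summed count (Clopper-Pearson); blanks were set at 3 counts in ratios and 0 in intervals. Ratios of ratios have exact conditional odds-ratio intervals. Reads amplified by PCR without molecular identifiers are not independent molecules: intervals and the floor cover counting error only. With 1 library per group no test of groups was possible. The script was tested on simulated data. edgeR 4.0.16 and DESeq2 1.42.0 gave scaling factors alone. After a first run was seen, these and the upper quartile were restricted to the eligible miRNAs, since the first ones rested on very low counts, and the 10 most abundant miRNAs were made the same in both libraries; the first versions were kept as 4 added alternatives. Members and lists were chosen with earlier results of these data known. The miRNAs named are all listed member arms, the 3 nearest to each guide, the extremes and those over 1000 CPM of each list, and the most abundant marker of each marker list; miR-223-3p, miR-129-5p, miR-338-3p, miR-145-5p and, as most abundant in 1 library alone, miR-143-3p and miR-200c-3p were named after their values were seen. Python 3.11.15 and SciPy 1.17.1 were used.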

Additional observations from a re-analysis of the deposited data

How the results depend on the processing

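No paired analysis was possible because each line has 1 library, and for the same reason no replicate could be left out. Of 13 alternatives, 4 are first-run scalings, kept when revised versions replaced them after the first results were seen. miR-146a-5p, miR-155-5p and miR-146b-3p kept their direction and their side of 2-fold under all 13, and miR-146b-5p under 12, the exception being a first-run scaling. When each library's own 10 most abundant miRNAs were left out of the total, which moved all ratios by -0.36, miR-146b-5p reversed to -0.14, the summed miR-146 counts to -0.043, the summed miR-146 guides to -0.066 and the list acting on NF-kB to -0.34, miR-9-3p was no longer called at 0.66, and miR-9-5p at -1.34 and the summed miR-9 counts at -1.30 were called lower. Both miR-9 arms lie near 2-fold and changed sides. The log2 ratio of miR-9-3p was no longer called and that of miR-9-5p was called lower at 0.81 and -1.19 without the 10 most abundant miRNAs, 0.81 and -1.19 with upper-quartile scaling, 0.90 and -1.10 with DESeq2 size factors, 0.99 and -1.01 with edgeR's TMM, and 0.93 and -1.02 with the deeper library thinned. The same held at 0.97 and -1.02 with upper-quartile scaling over all listed miRNAs, a first-run scaling. There the median of the list acting on NF-kB was -0.022. DESeq2 and TMM factors over all listed miRNAs, first-run scalings as well, moved all ratios by 0.16 and 0.07 and changed no member's call. With the authors' normalized values miR-9-3p was not called either, at 0.81. The 4 revised scalings (without the top 10, upper quartile, DESeq2, TMM) moved all ratios by -0.21, -0.21, -0.12 and -0.03. Thinning left 610 eligible miRNAs in place of 690 and moved their median to 0.03. The calls in MDA-MB-468 were then 197 higher and 194 lower, against 227 and 195 at full depth. The background shares thus depend in part on the unequal depth. With the authors' normalized values the 3p share of mir-146b in MDA-MB-468 was 2.55%. The median of the list acting on NF-kB was -0.18 without the 10 most abundant miRNAs and with upper-quartile scaling, -0.094 with DESeq2, -0.0079 with TMM and -0.026 with the smallest count over precursors. Of the NF-kB-induced list, 1 in place of 2 was called lower with DESeq2 factors over all listed miRNAs. With at least 50 counts, which leaves 416 miRNAs, the calls in MDA-MB-468 fell to 146 higher and 103 lower. miR-9-3p in BT474, with 21 counts, has the lowest depth of the member arms.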
